A study of Mus musculus with 6 samples.

Results

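The genes examined here are 36 genes of S phase and DNA replication, taken as a named list. The list was chosen with earlier results of these data known. They cover the licensing of replication origins, the MCM helicase and its activation, the switch from G1 into S phase, the polymerases and other fork proteins, the supply of nucleotides, and the supply of histones and methylation of new chromatin. All 36 had a probe set assigned to them alone, among 18194 genes so represented on the array. Each gene was read from the probe set with the highest mean signal over the 6 arrays. For 34 of the 36 that probe set was bright enough to be tested, among 11666 genes with a tested probe set. The remaining members, E2f2 and Tyms, stayed below the filter and are given only by their signals.

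Messenger RNA was measured on 6 Affymetrix Mouse430_2 arrays, 1 per culture, from primary fibroblasts that had grown out of dermis explants of B6 mouse pups of both sexes. The labels give pups of 0 to 2 days and passage 6, whereas the description of the series gives 0 to 3 days and a split of the cells into treated and untreated cultures by passage 5. The 3 control cultures were left untreated, and the 3 Et1 cultures received synthetic endothelin 1 peptide at 100 nM for 24 hours. Endothelin 1 is a peptide hormone of vessels and other tissues that binds G-protein-coupled receptors and can act on fibroblasts as a growth signal. All cultures were kept in medium with serum, so the control cells were not described as starved or held out of the cycle. The labels call the arrays biological replicates without naming animals, so p-values measure the spread between these arrays, which may be technical. In a whole culture a smaller share of cells in S phase cannot be told apart from less RNA per cell.

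A cell prepares its origins in late mitosis and G1. The origin recognition complex, with Cdc6 and Cdt1, loads the ring of MCM proteins onto DNA, and geminin later blocks Cdt1 so that no origin is loaded again. At the start of S phase cyclin E and its kinase, the Dbf4-dependent kinase, Mcm10, Cdc45 and the GINS complex turn the loaded ring into a working helicase, and the polymerases follow it. Deoxynucleotides come from ribonucleotide reductase (Rrm1 and Rrm2), thymidylate synthase (Tyms), thymidine kinase (Tk1) and the dUTPase Dut. Many of these genes are transcribed around the transition from G1 to S by factors of the E2F family, and fibroblasts that leave the cycle lower them together with the genes of mitosis.

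Promoter sequences are shown as examples for 3 genes of the MCM helicase, which carry letters of E2F sites, and for 3 genes of nucleotide supply, which do not. The values of both groups are described further on. Mcm2 and Dut also lack E2F letters and are not shown, and both had higher means with Et1 (log2 fold changes of 0.34 and 0.26). A link between the letters and the direction of change was not tested. The windows are the 170 bases before the annotated transcript start, 5′ to 3′ on the gene's strand, from RefSeq (build GRCm38.p6). They lie at chr8:75109339-75109508 (plus strand) for Mcm5, chr1:128359706-128359875 (minus strand) for Mcm6, chr5:138171884-138172053 (minus strand) for Mcm7, chr7:102441525-102441694 (plus strand) for Rrm1, chr12:24708084-24708253 (plus strand) for Rrm2 and chr11:117826015-117826184 (minus strand) for Tk1. Capitals mark letters that match an E2F site (TTTCCCGC, TTTGGCGC, TTTCGCGC or TTTGCCGC, on either strand) or a CCAAT box (CCAAT on either strand), and in Mcm5 and Mcm6 neighbouring E2F matches overlap.
Mcm5: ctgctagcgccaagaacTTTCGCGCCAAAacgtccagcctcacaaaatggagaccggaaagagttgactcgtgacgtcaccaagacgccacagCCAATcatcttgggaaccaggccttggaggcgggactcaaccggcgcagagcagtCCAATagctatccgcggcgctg
Mcm6: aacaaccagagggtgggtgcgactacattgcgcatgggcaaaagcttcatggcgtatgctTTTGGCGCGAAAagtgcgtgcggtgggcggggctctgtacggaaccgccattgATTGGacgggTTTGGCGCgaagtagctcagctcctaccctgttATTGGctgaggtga
Mcm7: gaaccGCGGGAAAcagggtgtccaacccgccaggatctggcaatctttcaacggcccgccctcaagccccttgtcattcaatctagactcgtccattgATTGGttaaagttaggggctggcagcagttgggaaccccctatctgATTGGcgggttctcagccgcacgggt
Rrm1: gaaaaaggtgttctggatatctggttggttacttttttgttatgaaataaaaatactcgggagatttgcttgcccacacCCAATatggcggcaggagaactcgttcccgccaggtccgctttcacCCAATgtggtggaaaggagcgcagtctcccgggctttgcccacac
Rrm2: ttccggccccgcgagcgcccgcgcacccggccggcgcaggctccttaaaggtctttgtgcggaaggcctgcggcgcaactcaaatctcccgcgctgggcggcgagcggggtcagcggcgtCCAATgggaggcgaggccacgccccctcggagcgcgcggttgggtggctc
Tk1: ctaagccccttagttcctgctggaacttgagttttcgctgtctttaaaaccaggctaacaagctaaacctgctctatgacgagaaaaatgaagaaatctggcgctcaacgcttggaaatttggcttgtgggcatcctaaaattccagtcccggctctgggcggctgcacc

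Over the whole RefSeq window of 250 bases before to 50 after the start, 13 of the 30 members with an entry held the E2F letters (43.3%), against 704 of 27025 genes (2.6%). They were Orc1, Cdc6, Cdt1, Mcm3, Mcm5, Mcm6, Mcm7, E2f2, Pola1, Pold1, Rfc3, Lig1 and Uhrf1. The 13 included 3 of 4 licensing genes and 4 of 5 MCM genes with an entry, and 0 of 5 nucleotide genes; no match says only that these letters are not in this window. The CCAAT letters stood in 19 of the 30 members (63.3%) and in 41.1% of all genes, and the letters TTTGAA of the CHR element, known from promoters of mitotic genes, in 4 of 30 (13.3%) and in 20.2% of all genes. Of the members with E2F letters and a tested probe set, 9 of 12 had a higher mean with Et1, with a median log2 fold change of 0.15. Of those with an entry but without the letters, 11 of 16 had a higher mean, with a median of 0.26.

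The deposited signals were not at a common level, with 2% trimmed means of 91.7 to 179 over the 6 arrays, and all signals below were scaled to a common trimmed mean of 139 in arbitrary units. The arrays also fell into 2 sets by the mean log2 signal of 27 Bacillus control probe sets, which read bacterial spike-in transcripts. It was 3.45 to 3.57 in a low set, made up of Et1 replicate 2 with control replicates 1 and 2, and 4.75 to 5.64 in a high set, made up of control replicate 3 with Et1 replicates 1 and 3. The 3′ probe set of 18S ribosomal RNA moved the same way, at 4.83 to 19.7 in the former and 85.4 to 149 in the latter, while the ratio of the 3′ to the 5′ probe set of beta-actin stayed between 1.15 and 1.23. Fibroblast markers were present, with a summed signal over 9 genes of 20592 to 34699 on control and 14701 to 26557.5 on Et1 arrays. Vim, an intermediate filament of mesenchymal cells, averaged 8781, with a log2 fold change of 0.02. Every other tested fibroblast marker had a lower mean with Et1, with log2 fold changes of -0.26 to -1.26 and 0 called. The smallest p among them were those of Pdgfrb (-1.14, limma adjusted p = 0.0615, no overlap between the groups) and Col3a1 (-1.26, limma adjusted p = 0.217). The summed signals of the markers of keratinocytes, melanocytes, endothelial cells, macrophages, mast cells, Schwann cells and skeletal muscle, over 2 to 8 genes each, lay at 559.6 or below, those of 3 adipocyte markers at 913 or below, and 1 marker was called, Fabp4 of adipocytes, named here after its values were seen, which fell by 1.44 on the log2 scale (limma adjusted p = 0.0258). The part of these sets and markers in the members' values was not tested.

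With Et1, the mean signals of replication genes lay on both sides of the control means. Licensing and MCM genes had somewhat higher means, Rrm1, Rrm2 and Tk1 of nucleotide supply had lower means, and the polymerase and fork genes lay on both sides of no change. None of the 34 tested members passed an adjusted p of 0.05 in limma's comparison of Et1 with control, and the smallest adjusted p was 0.191 (Cdt1). Over all 22519 tested probe sets that threshold was passed by 0.346%, with 0.0977% higher and 0.249% lower. Those 78 probe sets became 4 without control replicate 1 or without control replicate 2, 10, 46 and 6 without Et1 replicates 1, 2 and 3, and 229 without control replicate 3, with 0 members called each time. At an unadjusted p under 0.05, 1 member was higher, Cdt1, and 2 were lower, Rrm1 and Tk1, where the shares of all probe sets were 5.94% and 6.38%. The mean log2 signal was higher with Et1 for 24 members and lower for 10, and 54.1% of all probe sets were higher. The median log2 fold change of the members was 0.16 and that of all tested probe sets 0.03. The members' median was 0.06 without Et1 replicate 1, 0.25 without control replicate 3, and 0.07 in a fit that took the spike-in set as a block (a term that removes the mean difference between the sets), in which 21 members were higher and 13 lower. Without control replicate 1, 20 were higher and 14 lower. The 3 Et1 signals lay wholly above the 3 control signals for Cdt1, Mcm7 and Slbp and wholly below them for Rrm1, so 3 of 34 members were separated upwards and 1 downwards, against 9.47% and 8.11% of all probe sets.

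**Figure D1:**
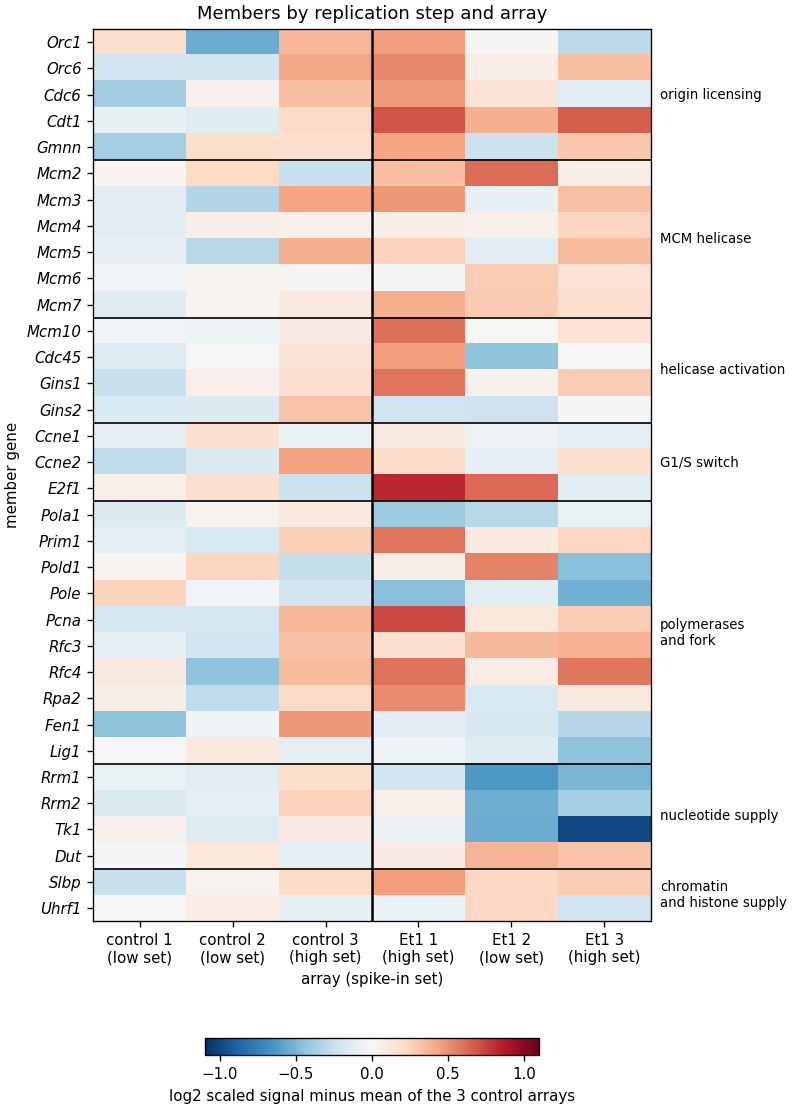
Each row is a member and each column an array; the colour is the log2 scaled signal minus the mean log2 signal of the 3 control arrays, from -1.1 (blue) to 1.1 (red), with black lines between the steps and between the groups. Control replicate 3 and Et1 replicate 1 are red over most licensing, activation and fork genes, and Rrm1 and Tk1 are blue on all 3 Et1 arrays.

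Several members differed between the low and the high spike-in set. In a fit that also held the treatment, the members' median difference, high minus low set, was 0.27 on the log2 scale and that of all probe sets 0.02, and 25 of the 34 members were higher in the high set. Limma called 5 of them higher in the high set, Orc6, Mcm3, Mcm5, Ccne2 and Pcna, and 2 lower, Mcm2 and Pold1, against 6.71% and 9.99% of all probe sets. Mcm3 differed most among these calls by adjusted p, at 0.57 (limma adjusted p = 0.00887), followed by Mcm5 at 0.51 (limma adjusted p = 0.0121). The direction of some of these set differences depended on the probe set read: another tested probe set of Pold1 stood at 1.1 (limma adjusted p = 0.00255), where the brightest stood at -0.57 (limma adjusted p = 0.0417). Other probe sets stood at -0.31 for Mcm5, at 0.31, 0.15, 0.06 and -0.20 for Mcm3 and at 0.15 for Mcm2, and none of these was called. Limma also called probe sets other than the brightest for Mcm7 (0.79), Rrm1 (0.47), Prim1 (0.43) and Ccne1 (-0.52). With the set as a block, a setting chosen with earlier results of these data known, limma called 2 of the 34 members for Et1 minus control: Cdt1 rose and Rrm1 fell. Over all probe sets the block called 1.39% higher and 2.47% lower. The low set holds 2 control arrays and 1 Et1 array and the high set 1 and 2, so the differences within a set given below carry no test.

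**Figure D2:**
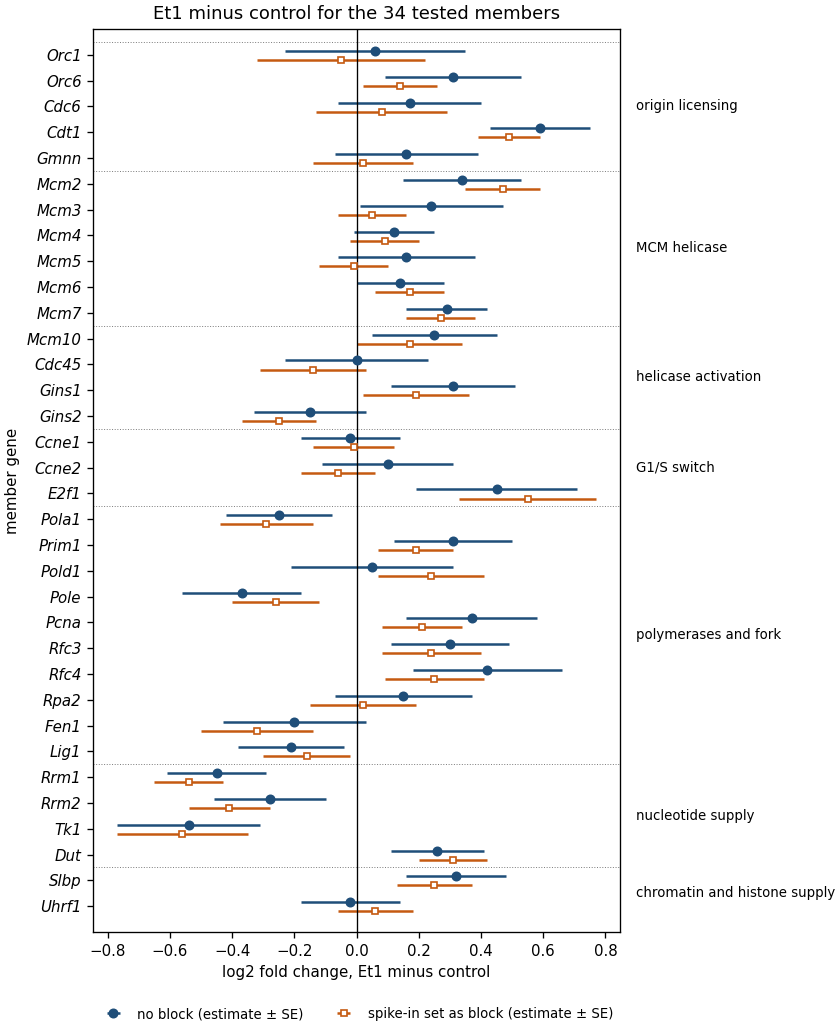
Points give the log2 fold change of Et1 minus control for the 34 tested members by step, as filled circles without a block and open squares with the spike-in set blocked; bars are the standard error of the fit. Cdt1 lies farthest to the right of the licensing genes, at 0.59 and 0.49, and Rrm1, Rrm2 and Tk1 lie left of 0 in both fits.

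Cdt1, the factor that delivers the MCM ring to origins, gave scaled signals of 549, 531 and 673 on control replicates 1 to 3 and of 938.5, 764 and 924 on Et1 replicates 1 to 3. Every Et1 array was above every control array, and control replicate 3 was the highest of the controls. The means were 584 ± 77.4 for control and 875.5 ± 96.9 for Et1 cultures (SD, n = 3), a log2 fold change of 0.59 (SE 0.16, 95% interval 0.22 to 0.95, limma adjusted p = 0.191). With the spike-in set blocked it was 0.49 (limma adjusted p = 0.025), with 0.50 among the arrays of the low set and 0.47 among those of the high set. A further tested probe set of Cdt1 gave 0.64, and 0.62 with the block (limma adjusted p = 0.0175).

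The other licensing genes overlapped between the groups. Gmnn, the gene of geminin, which binds and blocks Cdt1, read 286, 423 and 421 on the control and 499, 314 and 454.5 on the Et1 arrays. Its low arrays were control replicate 1 and Et1 replicate 2, both of the low set, and its log2 fold change of 0.16 (SE 0.23) became 0.02 with the block. Orc6, a subunit of the origin recognition complex, read 261, 263 and 406 on the control and 437, 319 and 380 on the Et1 arrays. All 3 arrays of the high set were above all 3 of the low set for Orc6, and its log2 fold change of 0.31 (SE 0.22) became 0.14 with the block. Cdc6, which helps the complex load the helicase, read 119, 160 and 194 on the control and 213, 172 and 142 on the Et1 arrays, a log2 fold change of 0.17 (SE 0.23). Orc1, the largest subunit of the complex, was dim and variable, at 77.0 to 144.5 on the control and 91.9 to 154 on the Et1 arrays, and 2 of its probe sets differed in sign (0.06 and -0.12). The median of the 5 licensing genes was 0.17, with all 5 above 0, and with the block 0.08. It was 0.03 without Et1 replicate 1, 0.36, 0.30 and 0.33 without Et1 replicate 2, Et1 replicate 3 and control replicate 3, and 0.01 among the arrays of the high set, where Orc1 stood at -0.28 and Cdc6 at -0.16.

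In their brightest probe sets all 6 subunits of the MCM helicase, the ring that unwinds DNA at the fork, had a higher mean with Et1. The log2 fold changes were 0.12 to 0.34 in the fit without a block, and none passed the threshold (smallest limma adjusted p = 0.427). Another tested probe set stood at -0.09 for Mcm3, -0.19 for Mcm5 and -0.03 for Mcm7. The remaining tested probe sets of the 6 genes had higher means. Mcm7 gave 1119, 1254 and 1314 on the control and 1617, 1501 and 1394 on the Et1 arrays. The Et1 arrays were all higher, though the lowest of them exceeded the highest control by little, and the log2 fold change was 0.29 (SE 0.13, 95% interval -0.01 to 0.60). Mcm2 gave 610, 702 and 509 on the control and 758, 922 and 634 on the Et1 arrays. Its groups overlapped through control replicate 2 and Et1 replicate 3, and its log2 fold change was 0.34 (SE 0.19), 0.47 with the block (limma adjusted p = 0.0556), and 0.20 without Et1 replicate 2 and 0.22 without control replicate 3. Unlike the brightest probe sets of Mcm3 and Mcm5, that of Mcm2 was lower in the high set, by -0.39 (limma adjusted p = 0.0474).

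Mcm3 read 453, 393 and 662.5 on the control and 680.5, 462 and 614 on the Et1 arrays. Mcm5 read 586, 506 and 822.5 on the control and 746.5, 574 and 797 on the Et1 arrays. In both genes the 3 arrays of the high set stood above the 3 of the low set whatever the treatment, and their log2 fold changes of 0.24 and 0.16 became 0.05 and -0.01 with the block. Mcm4 read 1017, 1155 and 1146 on the control and 1163, 1147 and 1301 on the Et1 arrays, a log2 fold change of 0.12 (SE 0.13). Mcm6 read 947, 986 and 976 on the control and 953, 1175 and 1084 on the Et1 arrays, a log2 fold change of 0.14 (SE 0.14). The Et1 arrays of Mcm4 and Mcm6 thus reached into the control range, and their 95% intervals ran from -0.18 to 0.43 and from -0.17 to 0.45. The median of the 6 subunits was 0.20, and 0.13 with the block. Relative to the control mean, their median on each array was -0.10, 0.03 and 0.08 on control replicates 1 to 3 and 0.30, 0.17 and 0.21 on Et1 replicates 1 to 3, so that the Et1 arrays all lay above the controls.

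The factors that turn the loaded ring into a running helicase had no common direction. Cdc45, which rides with the helicase, read 193, 212 and 234 on the control and 291, 156 and 211 on the Et1 arrays. The Et1 arrays held both the highest and the lowest signal of all 6, and its log2 fold change was 0.00 (SE 0.23). Mcm10, which helps to start the helicase, read 147 to 163 on the control and 234, 153 and 171 on the Et1 arrays, a log2 fold change of 0.25 (SE 0.20). Et1 replicate 1 was the highest array of Mcm10, as it was of Gins1, a subunit of the GINS complex, with 101, 124 and 136 on the control and 179, 123 and 145 on the Et1 arrays (log2 fold change 0.31, SE 0.20). Gins2, a further subunit, read 356, 360 and 495 on the control and 345, 340 and 393 on the Et1 arrays, a log2 fold change of -0.15 (SE 0.18).

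Among the genes of the switch into S phase, E2f1, a transcription factor that activates many replication genes, had the largest difference. It read 197, 214 and 160 on the control and 337, 291 and 175 on the Et1 arrays. Et1 replicates 1 and 2 were above all controls and Et1 replicate 3 lay among them, and the log2 fold change was 0.45 (SE 0.26, 95% interval -0.14 to 1.03, limma adjusted p = 0.528). It was 0.25 without Et1 replicate 1 and 0.73 without Et1 replicate 3, and another tested probe set of E2f1 gave 0.11. Cyclin E, the partner of Cdk2 in this switch, had log2 fold changes near 0 in both of its genes, with 95% intervals of -0.37 to 0.34 for Ccne1 and -0.39 to 0.58 for Ccne2. Ccne1 read 287, 346 and 292 on the control and 329, 295 and 289 on the Et1 arrays (log2 fold change -0.02, SE 0.16), and Ccne2 281, 304 and 461 on the control and 391, 319 and 384 on the Et1 arrays (0.10, SE 0.21). E2f2, a relative of E2f1, had scaled signals of 3.68 to 11.8 on the control and 7.94 to 17.7 on the Et1 arrays and was not tested.

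The 10 polymerase and fork genes divided into 6 with a higher and 4 with a lower mean; their median was 0.10 on the log2 scale, with 0 past the threshold (smallest limma adjusted p = 0.475). Pcna, the sliding clamp that holds the polymerases on DNA, read 2117, 2116 and 3097 on the control and 3980, 2596.5 and 2892 on the Et1 arrays. Control replicate 3 lay above Et1 replicates 2 and 3, and the log2 fold change of 0.37 (SE 0.21) became 0.21 with the block and 0.19 without Et1 replicate 1. Rfc3 and Rfc4, subunits of the complex that loads the clamp, had log2 fold changes of 0.30 (SE 0.19) and 0.42 (SE 0.24). Rfc4 read 223, 154 and 266 on the control and 316, 222 and 312 on the Et1 arrays, with Et1 replicate 2 inside the control range. Rfc3 read 182, 167 and 244 on the control and 220.5, 249 and 255 on the Et1 arrays, with Et1 replicate 1 below control replicate 3, and its log2 fold change was -0.04 among the arrays of the high set. In a dimmer probe set Rfc3 had a log2 fold change of 0.86 (SE 0.28, limma adjusted p = 0.268).

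The subunits of the polymerases did not share a direction. Prim1, the primase subunit that makes the RNA primer, read 453, 431.5 and 583 on the control and 728, 521.5 and 568 on the Et1 arrays (log2 fold change 0.31, SE 0.19). Pola1, the catalytic subunit of the polymerase that works with the primase, read 186, 212.5 and 223 on the control and 158, 168 and 196.5 on the Et1 arrays (-0.25, SE 0.17). The partners in 1 enzyme complex thus had means on opposite sides of 0, and neither passed the threshold. Pole, the catalytic subunit of the leading-strand polymerase, read 276, 228 and 201 on the control and 170, 214 and 161 on the Et1 arrays (-0.37, SE 0.19, 95% interval -0.80 to 0.06). Pold1, that of the lagging-strand polymerase, read 309, 359 and 253 on the control and 318, 445 and 222 on the Et1 arrays (0.05, SE 0.26). In this probe set of Pold1 the arrays of the low set were the brighter ones with the exception of Et1 replicate 1, which lay above control replicate 1. Another tested probe set gave 0.51 (SE 0.21) for Prim1 and 0.49 (SE 0.4) for Pold1, and neither was called.

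The genes that finish the lagging strand had lower means in their brightest probe sets that did not pass the threshold. Lig1, the ligase that joins Okazaki fragments, read 267.5, 289 and 250.3 on the control and 260.2, 244 and 198 on the Et1 arrays (log2 fold change -0.21, SE 0.17). Fen1, which removes their primer flaps, read 414.5, 548 and 783 on the control and 515.5, 499 and 452 on the Et1 arrays (-0.20, SE 0.23). Control replicate 3 stood above every other array of Fen1, and without it the log2 fold change was 0.03. In another probe set of Fen1 it was 0.36 (limma adjusted p = 0.491). There the Et1 signals of 371, 438 and 279.3 lay above the control signals of 278.2 to 278.5, that of Et1 replicate 3 by little. Rpa2, a subunit of the protein that covers single-stranded DNA, read 161 to 227 on the control and 174 to 281 on the Et1 arrays (0.15, SE 0.22).

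Of the nucleotide enzymes, Rrm1, Rrm2 and Tk1 had log2 fold changes below 0 and Dut above it, with a median of -0.37 over the 4 tested genes and -0.48 with the block. The median on Et1 replicates 1 to 3, relative to the control mean, was -0.01, -0.54 and -0.44, so Et1 replicate 1 stayed at the control level. Without each array in turn the median log2 fold change lay between -0.51 and -0.25. Rrm1, the large subunit of ribonucleotide reductase, read 1744, 1678 and 2092 on the control and 1578, 1183 and 1293 on the Et1 arrays. Every Et1 array was below every control array, by the least for Et1 replicate 1. The means were 1838 ± 223 and 1351.5 ± 204 (SD, n = 3), a log2 fold change of -0.45 (SE 0.16, 95% interval -0.81 to -0.09, limma adjusted p = 0.303). With the spike-in set blocked it was -0.54 (limma adjusted p = 0.0272), with -0.53 among the arrays of the low set and -0.55 among those of the high set. A further tested probe set of Rrm1 gave -0.34, and -0.50 with the block (limma adjusted p = 0.0449).

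Rrm2, the small subunit of the same enzyme, read 2387, 2487 and 3172 on the control and 2762.5, 1834 and 2057 on the Et1 arrays. Et1 replicate 1 lay above the lower control arrays, and the log2 fold change was -0.28 (SE 0.18, limma adjusted p = 0.578), with -0.41 within each spike-in set. It was -0.16 without Et1 replicate 2 and without control replicate 3, and -0.45 without Et1 replicate 1. Its other tested probe sets gave -0.52 and -0.39, and in both of those the groups did not overlap. Tk1, which salvages thymidine, read 519, 455 and 534 on the control and 479, 343 and 251 on the Et1 arrays. Et1 replicate 1 lay within the control range and Et1 replicate 3 was the lowest array. The log2 fold change of Tk1 was -0.54 (SE 0.23, 95% interval -1.07 to -0.01, limma adjusted p = 0.403), and it was -0.31 without Et1 replicate 3 and -0.77 without Et1 replicate 1. Dut, which removes dUTP and so keeps uracil out of DNA, read 455, 499 and 428 on the control and 490.1, 595 and 570.1 on the Et1 arrays (0.26, SE 0.15). Tyms, which makes thymidylate, had 4 probe sets, all below the filter, the brightest at 12.4 to 27.3 on the control and 3.56 to 34.7 on the Et1 arrays.

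**Figure D3:**
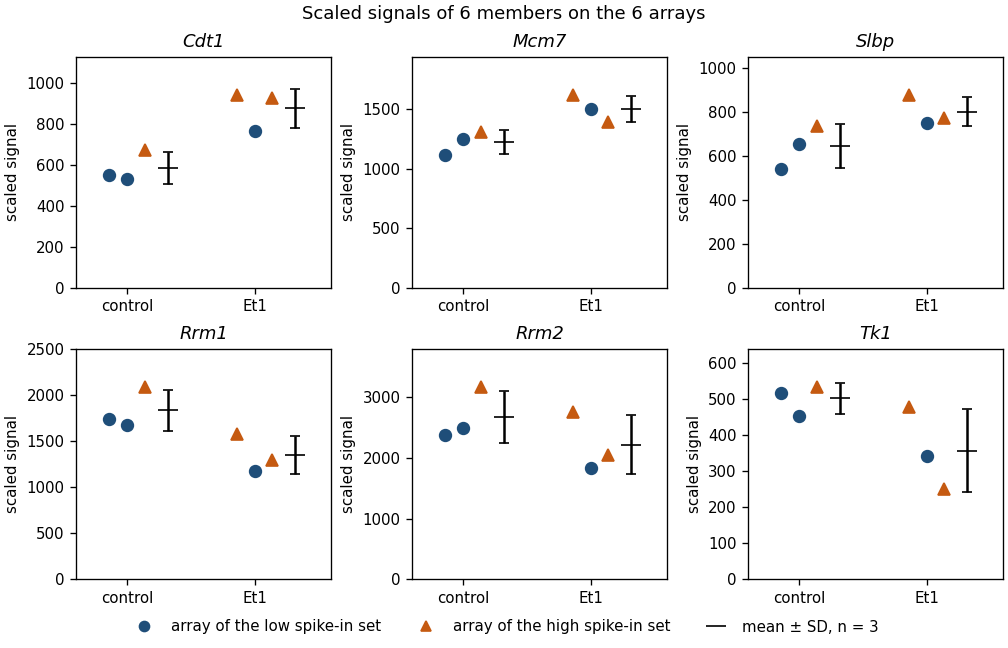
Scaled signals (arbitrary units, axis from 0) of 6 members on each array; circles are arrays of the low and triangles arrays of the high spike-in set, in replicate order from left to right, and the bar beside each group is its mean ± SD (n = 3). Cdt1, Mcm7 and Slbp lie higher and Rrm1 lower on all 3 Et1 arrays, while the groups overlap in Rrm2 and Tk1.

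Slbp, which binds the stem-loop of histone messenger RNAs and is made as S phase begins, read 542, 656 and 739 on the control and 877, 752.5 and 776 on the Et1 arrays. Its Et1 arrays were all above the controls, and the log2 fold change was 0.32 (SE 0.16, limma adjusted p = 0.470), 0.20 without control replicate 1, 0.33 among the arrays of the low set and 0.16 among those of the high set. Uhrf1, which brings the maintenance methylase Dnmt1 to new DNA, read 344 to 386 on the control and 316 to 426 on the Et1 arrays (log2 fold change -0.02, SE 0.16). Its mean signals, 365 ± 20.8 and 363 ± 57.0 (SD, n = 3), differed by less than the spread between replicates.

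Many members are covered by several probe sets, 79 in all, of which 61 were tested and 0 passed limma's threshold without a block. For 21 members another probe set than the brightest was tested, 27 in all, of which 20 had the sign of the brightest and 7 the opposite sign. The opposite log2 fold changes were -0.12 for Orc1, -0.09 for Mcm3, -0.19 for Mcm5, -0.03 for Mcm7, -0.05 for Cdc45, 0.05 for Ccne1 and 0.36 for Fen1, 1 probe set each, so for these the direction depends on the probe set read. The other members with more than 1 tested probe set, Cdt1, Rrm1 and Rrm2 among them, had the same sign in all of these. With the spike-in set blocked, 4 of the 61 were called, both tested probe sets of Cdt1 and both of Rrm1. Probe sets of 1 gene on the same arrays are not independent results. That fit called 1.39% of all probe sets higher and 2.47% lower.

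**Figure D4:**
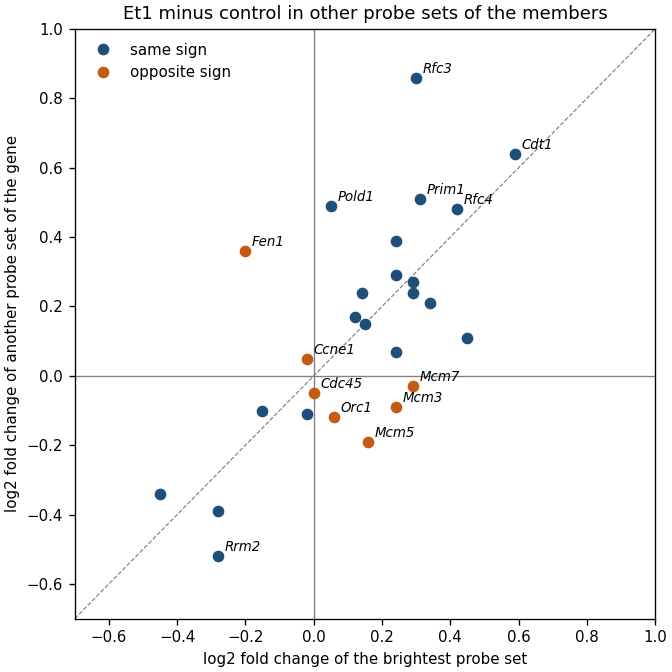
Each point is a tested probe set other than the brightest of its gene; the horizontal axis gives the log2 fold change (Et1 minus control) of the gene's brightest probe set, the vertical axis that of the other one, and the dashed line is equality. The 7 orange points have opposite signs, with Fen1 (-0.20 and 0.36) farthest from the line among them.

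A further list of replication genes, those not among the 36, likewise held no call without a block. Of 71 genes, 69 had a probe set and 68 were tested, 38 with a higher and 30 with a lower mean. Their median log2 fold change was 0.02, and 0 passed limma's threshold. At an unadjusted p under 0.05, 4 of the 68 were higher and 3 lower, where the shares of all probe sets were 5.94% and 6.38%. The groups did not overlap for 10 of the 68 with Et1 higher and for 5 with Et1 lower. The shares of all probe sets were 9.47% and 8.11%. Rnaseh2a, the catalytic subunit of the nuclease that removes RNA from RNA-DNA hybrids, came closest. It read 258.0, 263 and 279.8 on the control and 476, 425 and 434 on the Et1 arrays, with means of 267 ± 11.4 and 445 ± 27.2 (SD, n = 3). Its lowest Et1 array lay well above its highest control array, with a log2 fold change of 0.74 (SE 0.14, limma adjusted p = 0.0846). With the spike-in set blocked it rose by 0.70 (limma adjusted p = 0.00943), with 0.71 within the low and 0.70 within the high set. It was the 1 call among the 68 in that fit, which called 1.39% of all probe sets higher and 2.47% lower.

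In the same list, by role, the genes of each direction with the smallest p were as follows. Around origins, Orc5 (a subunit of the recognition complex) and Mcm8 (an MCM relative that works in repair) stood at 0.59 and 0.32, and Ddb1 and Orc3 at -0.22 and -0.04. In helicase activation, Gins4 and Recql4 stood at 0.35 and 0.42, and Dbf4, which switches on the kinase Cdc7, and Ticrr at -0.52 and -0.38; the Dbf4 signals were 633 to 693 on the control and 386 to 525 on the Et1 arrays and did not overlap. In the switch into S phase, Cdk2 and Cdc25a stood at 0.15 and 0.06, and E2f7 at -0.22. Ccna2, the cyclin of S phase and G2, stood at -0.66 (SE 0.23, limma adjusted p = 0.293), with 802 to 1164 on the control and 484 to 812 on the Et1 arrays. At the fork, Pole4 stood at 0.41, Prim2, the partner of Prim1, at -0.37, and Top2a, the topoisomerase that separates daughter strands, at -0.58 (SE 0.16, limma adjusted p = 0.201) with no overlap between the groups. In nucleotide supply, Nme1 and Shmt1 stood at 0.59 and 0.44, and Samhd1, which degrades deoxynucleotides, and Dguok at -0.35 and -0.13. In chromatin, Chaf1b, a subunit of the histone chaperone CAF-1, and Hells stood at 0.50 and 0.19, and Cbx5 and Asf1b at -0.20 and -0.08. The groups also did not overlap for Mcm8, Gins4, Recql4, Pole4, Chaf1b and Hells, with Et1 higher, and for Ddb1, Samhd1 and Dguok, with Et1 lower.

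A list of mitotic genes, also chosen with earlier results of these data known, was read on the same arrays for comparison. All 21 tested mitotic genes had a lower mean with Et1, with a median log2 fold change of -0.65, whereas 10 of the 34 members did. In 16 of the 21 the groups did not overlap, all with Et1 lower, against 1 of 34 members and 8.11% of all probe sets. Without a block limma called 1 of the 21, Cdc20, where 0.249% of all probe sets were called lower. With the spike-in set blocked it called 15 of the 21, all lower, and 2 of the 34 members, 1 in each direction. That fit called 1.39% of all probe sets higher and 2.47% lower. Cdc20, which switches on the ligase that starts anaphase, fell by 1.04 (limma adjusted p = 0.0304), while Ube2c, the ubiquitin-conjugating enzyme of that ligase, and Mki67, a protein of cycling cells, stood at -1.04 and -0.81 (limma adjusted p = 0.0701 and 0.0871). The call of Cdc20 was lost when any array other than control replicate 3 was left out. With no _x_at or _s_at probe sets, a setting that leaves out this probe set of Cdc20, the 1 call was Prc1. The difference between the lists was not tested.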

How the data were processed

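Affymetrix Mouse430_2 arrays of 3 control and 3 Et1 cultures were analysed. Per the submitters' processing notes, the deposited intensity values are MAS5 signals on a linear scale; the target of their scaling is not given in the sources used here. Each array was scaled to a common 2% trimmed mean, 4 values of 0 were set to that array's smallest positive value, and log2 was taken with no pseudocount. Of 45101 probe sets, 64 control probe sets were left out, and the 22519 with a mean scaled signal of at least 41.0, the median of the others, were tested with limma 3.58.1 in R 4.3.3 (lmFit, eBayes with an intensity trend), with Benjamini-Hochberg adjustment over all of them and a threshold of 0.05. Gene symbols came from GEO's platform annotation, with 34945 probe sets of 1 symbol, 932 of several and 9160 of none, and only those of 1 symbol were used. All log2 fold changes are Et1 minus control, and intervals are 95% intervals of the fit without a block.

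Every one of the 36 members was to be named. Of each list of other genes, those past the threshold were named and otherwise at most 2 in each direction by smallest p, except that the mitotic list gives only lower genes because none was higher. The members, the lists and the spike-in split were chosen with earlier results of these data known. The 3 arrays in each group limit the precision, with a median standard error of the members of 0.20. The fit was tested on simulated signals with planted changes, 50 of each size. It called 2 of the 1.5-fold, 9 of the 2-fold, 36 of the 4-fold and 38 of the 8-fold changes. Of 22319 probe sets without a planted change it called 1. The alternatives were quantile normalization, median centring, other filters, a pseudocount of 50, no intensity trend, no _x_at or _s_at probe sets, the mean of a gene's probe sets, the replicate block, the spike-in set as a block or taken singly, and each array left out in turn. Scanner settings deposited with the arrays were read but not used.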

Additional observations from a re-analysis of the deposited data

How the results depend on the processing

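With 3 arrays in each group, the absence of a call does not show that a member was unchanged. Over 34 members and the 16 other settings with a test, 510 of 542 values kept their direction and their side of the threshold, 30 changed sign and 2 passed the threshold. Part of this agreement was fixed in advance. The other filters, no intensity trend and the replicate block leave a log2 fold change as it was, so no sign could change there. A value that rounded to no change was not counted as a change of sign. The differences within a spike-in set have no test; 7 of 34 members changed sign in the high set and 5 of 34 in the low set. The cause of the changes was not tested.

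The 78 probe sets called became 40 with no filter, 7 with no intensity trend, 44 with median centring (7 higher and 37 lower, against 22 and 56), 868 with the spike-in set blocked and 4 to 229 with an array left out. Called members numbered 2 with the spike-in set blocked, Cdt1 and Rrm1, and 0 in the other settings. Over its alternatives the log2 fold change of Cdt1 ran from 0.47 to 0.69 (limma adjusted p from 0.025 to 0.649) and that of Rrm1 from -0.56 to -0.35 (0.0272 to 0.722). Of the other replication genes, 1 was called with the mean of probe sets and 1 with the spike-in set blocked. Of the mitotic genes 3 were called with the mean of probe sets, 0 with no intensity trend, 15 with the spike-in set blocked and 0 to 1 with an array left out.

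Whether the shared replicate numbers pair the cultures is not stated, and the check made here could not decide it. Same-numbered arrays deviated from their group means with correlations of -0.122, 0.44 and 0.446 for replicates 1 to 3. Replicates 2 and 3 correlated best with their own number, and each had both arrays in 1 spike-in set. Replicate 1 did not, and its arrays lay in different sets, so the check did not separate number from set. With the replicate block, 567 probe sets, 0 members, 2 other replication genes (Ccna2 and Rnaseh2a) and 8 mitotic genes were called.

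The MCM median was 0.08 within the high spike-in set and 0.15 to 0.28 with an array left out, that of the switch into S phase 0.27 with no filter and -0.04 to 0.32 with an array left out, and that of chromatin genes 0.26 within the low set. With an array left out the licensing median ran from 0.03 to 0.36, that of helicase activation from -0.03 to 0.30 and that of polymerase and fork genes from 0.01 to 0.22. Some members changed sign. With the mean of probe sets Orc1 was at -0.03, Mcm5 at -0.02, Cdc45 at -0.03, Ccne1 at 0.02 and Fen1 at 0.08, and with median centring Cdc45 was at -0.05. With no _x_at or _s_at probe sets Mcm5 was at -0.19, Ccne1 at 0.05 and Fen1 at 0.36. With the spike-in set blocked Orc1 was at -0.05, Mcm5 at -0.01, Cdc45 at -0.14, Ccne2 at -0.06 and Uhrf1 at 0.06. Within the high set Orc1 was at -0.28, Cdc6 at -0.16, Mcm3 at -0.04, Mcm5 at -0.09, Ccne1 at 0.08, Ccne2 at -0.25 and Rfc3 at -0.04, and within the low set Gmnn was at -0.15, Cdc45 at -0.37, Rpa2 at -0.06, Fen1 at 0.07 and Uhrf1 at 0.18. With an array left out Orc1 ran from -0.22 to 0.24, Cdc6 from -0.02 to 0.33, Gmnn from -0.02 to 0.36, Cdc45 from -0.22 to 0.22, Ccne1 from -0.07 to 0.07, Ccne2 from -0.04 to 0.32, Pold1 from -0.20 to 0.31, Rpa2 from -0.03 to 0.31, Fen1 from -0.42 to 0.03 and Uhrf1 from -0.14 to 0.08.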
